A study of Mus musculus with 6 samples.

Results

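The genes described here load amino acids onto transfer RNAs or belong to the cell's response to a shortage of amino acids. They are the aminoacyl-tRNA synthetases Wars, Gars, Sars, Aars, Nars and Eprs, and the amino acid response genes Asns, Phgdh, Psat1 and Slc7a5. Every probe set that the platform annotation assigns to 1 of these 10 symbols was taken, which gave 13 of the 12488 probe sets on the array, and 10 of its 8252 named genes. Total RNA was extracted from the pancreas of 6 male mice, 1 mouse per array, and hybridised to Affymetrix mouse arrays.

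The CF group was 3 CFTR-/- mice aged 57, 56 and 58 days, and the control group was 3 CFTR+/+ mice aged 57, 56 and 57 days. CFTR is the epithelial anion channel mutated in cystic fibrosis, and in the pancreas it lies mainly in duct cells. All 6 mice, controls included, were gastrin+/-, had a mixed background of 95% black6 and 5% 129Sv, and had received the Peptamen diet since day 10 of age. Peptamen was given against intestinal blockage. The label of control replicate 1 names the whole organ, and the other labels name the pancreas. The array titles of each group carry no suffix, a B or a P, and replicates 1, 2 and 3 stand for these in that order.

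An aminoacyl-tRNA synthetase joins 1 kind of amino acid to its transfer RNA, and the charged transfer RNA is what the ribosome uses. When amino acids run short, uncharged transfer RNAs activate the kinase GCN2, which phosphorylates the initiation factor eIF2 and slows most translation. Translation of the transcription factor ATF4 rises in that state, and ATF4 raises transcription of many synthetases, of asparagine and serine synthesis enzymes and of amino acid transporters. Pancreatic acinar cells make digestive enzymes at one of the highest rates of protein synthesis of any cell, and their demand for charged transfer RNA is correspondingly large.

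ATF4 binds a composite C/EBP-ATF response element, so this element was searched in the RefSeq promoter windows of the members (GRCm38.p6), which span 250 bases before to 50 after each start. The motif was TGATGNAA, read on both strands and the shorter core TGATG inside it was searched separately. Windows were found for 7 of the 10 members, namely Gars, Sars, Aars, Eprs, Asns, Phgdh and Psat1. The element lay in 3 of the 7, those of Gars, Aars and Asns, and in 3.97% of all 32851 windows. The core lay in the same number of member windows and in 39.3% of all windows. It was not found in the windows of Sars, Eprs, Phgdh and Psat1. The 3 stretches that hold it are shown because the values of these genes are set beside the element below; capitals mark the element, and each is written 5′ to 3′ on the gene's strand.
Gars, chr6:55037921-55038000, plus strand: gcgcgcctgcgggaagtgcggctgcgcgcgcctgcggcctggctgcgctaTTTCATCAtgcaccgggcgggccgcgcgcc
Aars, chr8:111033694-111033773, plus strand: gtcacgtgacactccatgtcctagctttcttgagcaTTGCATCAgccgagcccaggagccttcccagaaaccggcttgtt
Asns, chr6:7693210-7693289, minus strand: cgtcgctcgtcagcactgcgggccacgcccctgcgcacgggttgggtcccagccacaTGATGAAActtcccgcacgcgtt

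In Gars and Aars the capitals are the reverse complement of the motif, and in Asns they are the motif itself. The first base of the element lies 30 bases before the start in Gars, 112 in Aars and 23 in Asns. The Aars window lies inside the annotated span of that gene (chr8:111027778-111055569), whose first start lies farther upstream, and a second element begins 9 bases after the start used here. The Eprs window likewise lies inside the annotated span of its gene (chr1:185361417-185428360). The bases before the first start of Aars and of Eprs were therefore not searched. A match is a description of these letters and does not show binding.

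All values are deposited array intensities on a linear scale, and their trimmed means were nearly the same on every array (from 500.27 to 500.3). Array medians lay between 207.8 and 234.4, and 66 control probe sets were left out. Of 3 probe sets for Cftr, 1 was bright enough to test, at 467, 314 and 364 in CF pancreas and 318, 223 and 339 in control pancreas. The labels do not name the CFTR allele, so a Cftr probe set does not check the genotype. The acinar enzymes were at very high intensity in both groups, and the summed level of 14 acinar genes ranged from 875078 to 1000042 in CF and from 918598 to 1243454 in control. No marker list had a gene past the threshold, and no marker probe set was listed at 0. The sum for 14 duct genes ranged from 38546 to 44072 in CF and from 30371 to 36053 in control, and the sum for 24 matrix and stellate cell genes from 19984 to 25498 in CF and from 23989 to 37368 in control. A sum is weighted to its brightest genes, in the duct list to Clu, with means of 16896 in CF and 13047 in control. Of the 14 duct genes, 11 were higher and 3 lower in CF, and Krt8 and Krt19 differed by 0.04 each on the log2 scale. For 8 adipocyte genes the sum ran from 1925 to 3927 in CF and from 2372 to 18092 in control, for 12 islet genes from 23120 to 60479 in CF and from 20113 to 79342 in control. Each of the other marker lists, for lymphocytes, macrophages and granulocytes, and mesothelium, had a median difference below 0 (-0.45, -0.61 and -0.67 on the log2 scale). The medians were also below 0 for acinar (-0.16), islet (-0.11), matrix and stellate cell (-0.53) and adipocyte genes (-1.14), and 0.20 for duct genes. Without overlap, 8 matrix and stellate cell genes were lower and 0 higher in CF, and 6 duct genes were higher and 0 lower. Of all probe sets, 5.62% were lower and 7.37% higher without overlap. The 3′ to 5′ ratio of Gapdh was 0.72, 0.76 and 0.87 in CF and 0.80, 1.45 and 0.84 in control, so control replicate 2 stood apart for that gene. That of Actb was 1.75, 2.14 and 1.94 in CF and 1.74, 2.16 and 1.93 in control. The part of these markers and ratios in the results below was not tested. In whole tissue, fewer cells of a type and less RNA per cell cannot be told apart.

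No member passed the test between CF and control pancreas. Of the 13 probe sets, 6 were higher and 7 lower in CF, 0 reached an adjusted p under 0.05 in limma with Benjamini-Hochberg adjustment, and 0.0646% of all 7739 probe sets tested did. At an unadjusted p under 0.05 there were 2 members, 1 Wars probe set and the Psat1 probe set, against 7.38% of all probe sets. In none of the 13 did the CF and control arrays fail to overlap, against 13.0% of all probe sets (7.37% higher and 5.62% lower in CF). Over genes, with the brightest probe set for each, 4 members were higher and 6 lower, with a median log2 difference of -0.09, and the median of all 5804 named genes tested was -0.003. Without control replicate 3 the median of the members was 0.03. In 10 of the 13 probe sets the 95% interval of the difference lay between -1 and 1 on the log2 scale, as it did in 55.1% of all probe sets. The exceptions were Eprs, Phgdh and Psat1.

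**Figure D1:**
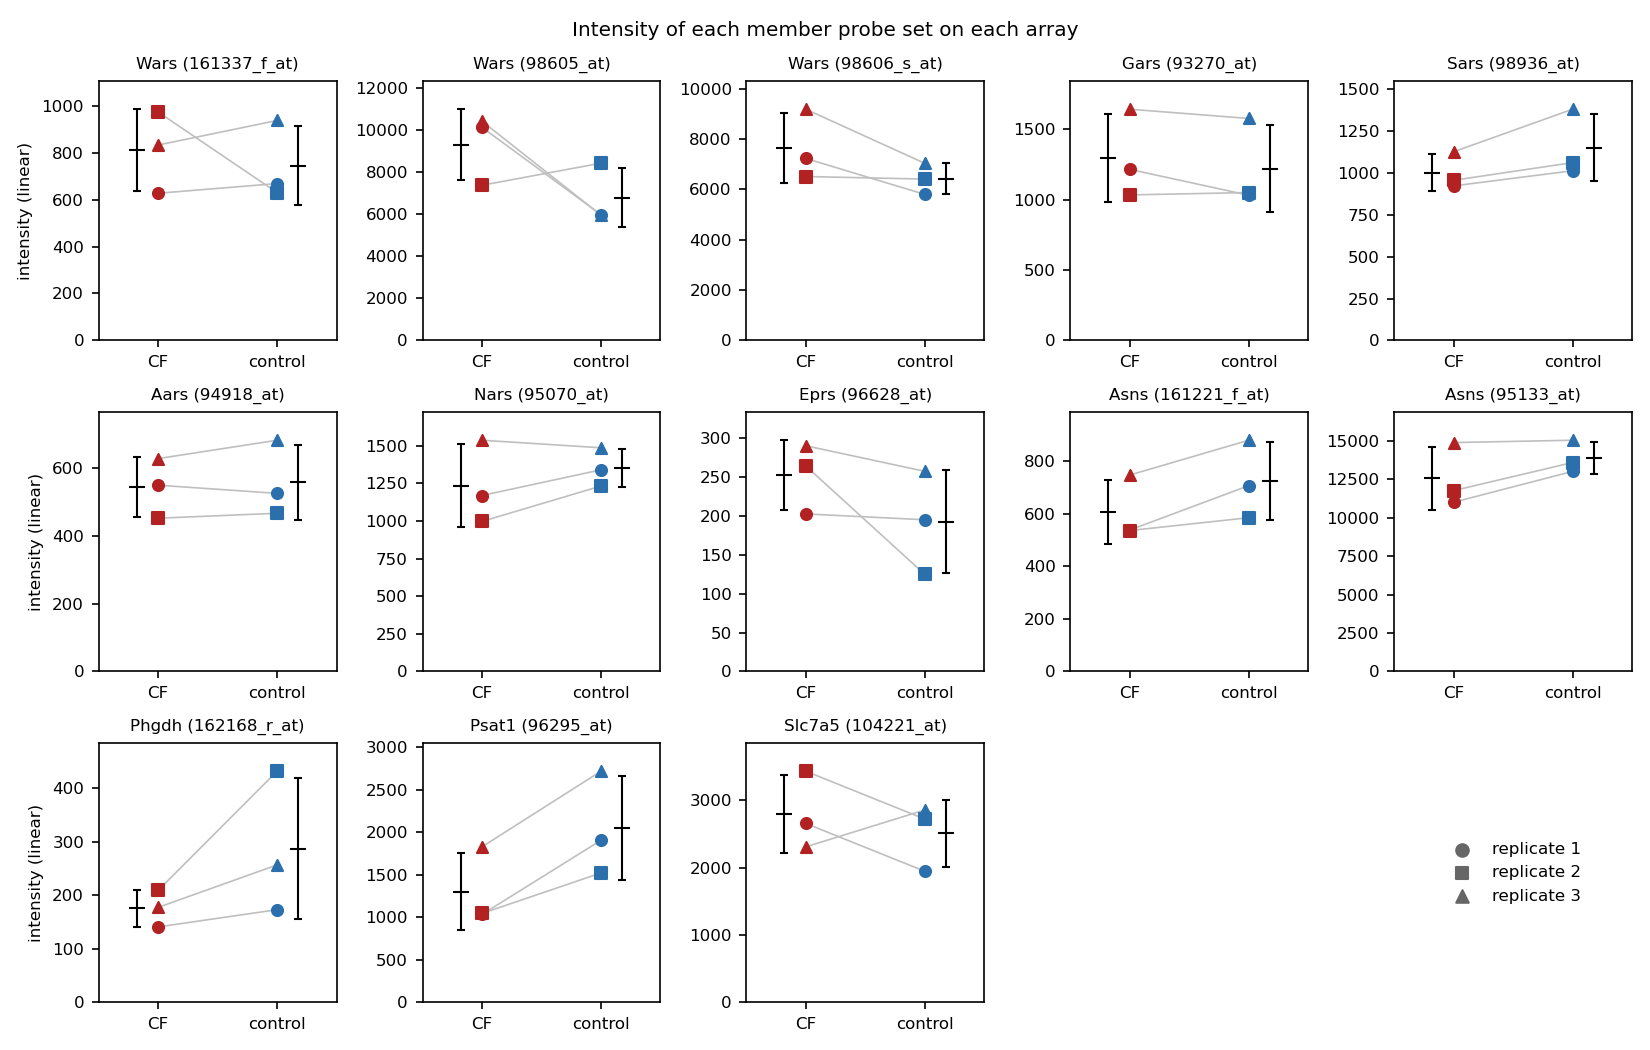
Deposited intensity (linear axis from 0, one panel per probe set) of each of the 13 member probe sets in the 3 CF arrays, drawn left, and the 3 control arrays, drawn right, with bars for the mean and SD and grey lines joining arrays of the same suffix. The points of the 2 groups overlap in every panel; levels are not comparable between panels.

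Among the synthetases, Wars (tryptophanyl-tRNA synthetase, chr12:108860030-108894175 in GRCm38.p6) was read by 3 probe sets. The brightest probe set had intensities of 10147, 7388 and 10438 in CF pancreas and 5990, 8440 and 5966 in control pancreas. CF replicates 1 and 3 lay above all controls, and CF replicate 2 lay below control replicate 2. The mean was 9324 ± 1683 in CF and 6799 ± 1422 in control (SD, n = 3 each), a log2 difference of 0.46 ± 0.20 (SE) with an adjusted p of 0.67 (limma). A second bright probe set had 7229, 6512 and 9186 in CF and 5802, 6410 and 7037 in control, a difference of 0.24 ± 0.17 with an adjusted p of 0.81 (limma). In it too CF replicate 2 was close to its same-suffix control, at a difference of 0.02, while the other pairs differed by 0.32 and 0.39. The dim probe set of the gene had 627, 974 and 833 in CF and 669, 630 and 938 in control. There the same-suffix pair 2 was the only pair with CF higher, by 0.63 on the log2 scale, whereas pair 3 differed most in both bright probe sets of Wars.

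Eprs encodes the glutamyl-prolyl-tRNA synthetase, which charges a pair of amino acids and is part of the multisynthetase complex. Its intensities were 203, 264 and 290 in CF pancreas and 195, 125 and 257 in control pancreas. This was a log2 difference of 0.44 ± 0.38 with an interval from -0.43 to 1.30 (adjusted p = 0.85, limma). Control replicate 2 was the low array, and the same-suffix differences were 0.05, 1.08 and 0.17. Without that array the difference was 0.16. Gars, the glycyl-tRNA synthetase, had 1216, 1034 and 1643 in CF and 1032, 1051 and 1578 in control, a difference of 0.09 ± 0.24 (adjusted p = 0.96, limma). For Aars, the alanyl-tRNA synthetase, values were 550, 453 and 629 in CF and 526, 468 and 683 in control, and the difference was -0.03 ± 0.24 (adjusted p = 0.99, limma). Both genes hold the response element shown above, and in both the 2 groups followed nearly the same course over the replicates. The share of the sum of squares left after genotype and suffix was 3.7% in Gars and 3.2% in Aars. It was 3.5% in Sars and 2.4% in Psat1, whose windows lack the element. Asns holds the element and was lower in CF within every same-suffix pair. A link between the element and these values was not tested.

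Sars, the seryl-tRNA synthetase, was lower in CF within every same-suffix pair. Its intensities were 922, 956 and 1126 in CF pancreas and 1012, 1061 and 1379 in control pancreas, a difference of -0.19 ± 0.20 with an interval from -0.64 to 0.25 (adjusted p = 0.88, limma). Nars, the asparaginyl-tRNA synthetase, had 1169, 997 and 1536 in CF and 1340, 1232 and 1486 in control, and a difference of -0.15 ± 0.20 (adjusted p = 0.91, limma). CF was the lower of the pair in replicates 1 and 2 and the higher in replicate 3. Of the 8 synthetase probe sets, 7 had an interval between -1 and 1, Eprs being the exception.

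Of the 4 amino acid response genes, Asns, Phgdh and Psat1 were lower in CF and Slc7a5 was higher, and none passed the test. Asns, asparagine synthetase, makes asparagine from aspartate with glutamine as the nitrogen source and is a standard readout of amino acid shortage. Its bright probe set had 10999, 11755 and 14880 in CF pancreas and 13005, 13581 and 15031 in control pancreas, a difference of -0.16 ± 0.16 (adjusted p = 0.88, limma). The interval ran from -0.51 to 0.20. The dimmer of its probe sets had 538, 537 and 748 in CF and 708, 585 and 881 in control, a difference of -0.25 ± 0.24 (adjusted p = 0.88, limma). Both Asns probe sets were lower in CF in all 3 pairs.

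Phgdh, phosphoglycerate dehydrogenase, and Psat1, phosphoserine aminotransferase, catalyse the first and the second step of serine synthesis from glycolysis. The Psat1 probe set had 1033, 1045 and 1827 in CF pancreas and 1903, 1520 and 2715 in control pancreas. Each CF array lay below its same-suffix control, but CF replicate 3 overlapped the controls. Means were 1302 ± 455 in CF and 2046 ± 610 in control (SD, n = 3 each), with a fitted ratio of 0.631, the log2 difference being -0.67 ± 0.29 (interval -1.32 to -0.01), with an unadjusted p of 0.0469 and an adjusted p of 0.67 (limma). The same-suffix differences were -0.88, -0.54 and -0.57. With the suffix as a block the SE was 0.14 and the unadjusted p 0.00316, and the adjusted p was 0.205 (limma). Phgdh had 141, 209 and 178 in CF and 173, 432 and 257 in control, a difference of -0.63 ± 0.41 (adjusted p = 0.79, limma). Its probe set was dim, and control replicate 2 held its highest value, without which the difference was -0.28.

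Slc7a5 encodes LAT1, the light chain of the exchanger that brings large neutral amino acids such as leucine and tryptophan into the cell. Its intensities were 2655, 3431 and 2309 in CF pancreas and 1946, 2721 and 2857 in control pancreas. CF was the higher of the pair in replicates 1 and 2, by 0.45 and 0.34, and the lower in replicate 3, by -0.31, and the difference was 0.16 ± 0.21 (adjusted p = 0.91, limma). The heavy chain that pairs with it, Slc3a2, had 6342, 8553 and 4226 in CF and 4179, 3865 and 4979 in control. Its pairs had the same signs as those of Slc7a5, at 0.60, 1.15 and -0.24, with a difference of 0.50 ± 0.25 (adjusted p = 0.70, limma).

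**Figure D2:**
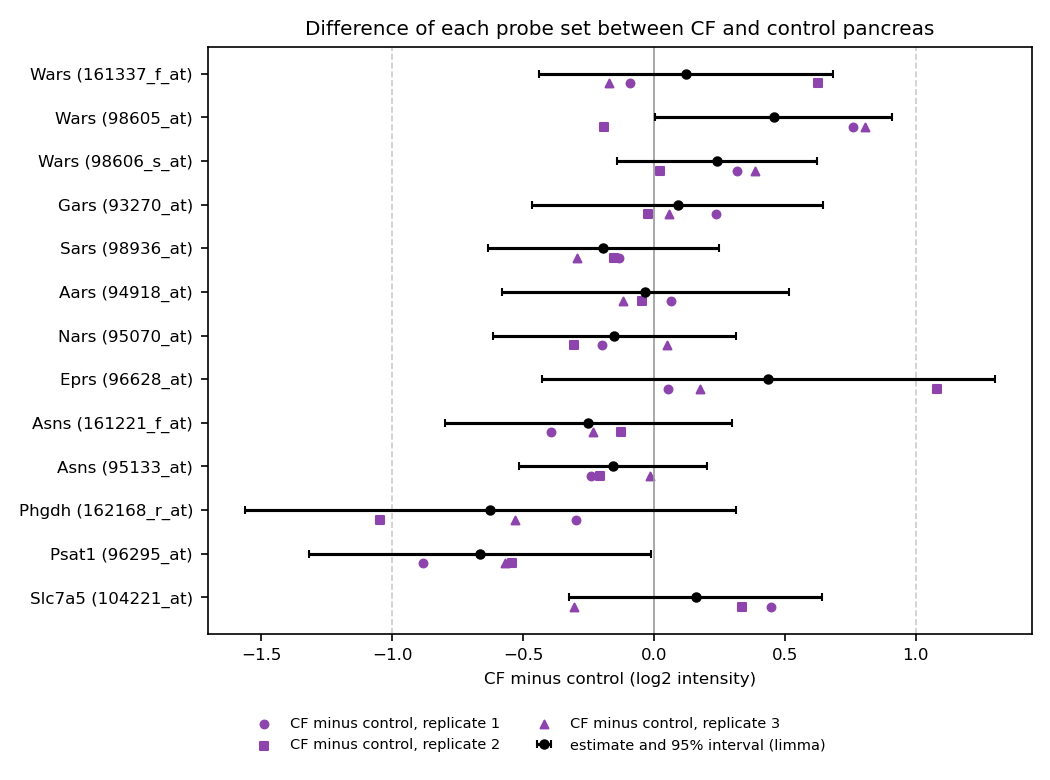
Log2 difference between CF and control arrays (x axis) for each of the 13 member probe sets, with the limma estimate and 95% interval in black and the 3 same-suffix differences as purple symbols. Intervals of 11 of the 13 cross 0; those of the brightest Wars probe set and Psat1 lie just to 1 side, and no probe set passed after adjustment.

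The arrays with the same suffix varied together, in the members as over the whole array. Same-suffix arrays of the 2 groups deviated from their group means with correlations of 0.231, 0.264 and 0.259 over all tested probe sets, and the other pairings gave values between -0.18 and -0.05. Deviations from a group mean sum to 0 over the 3 arrays of the group. Positive same-suffix values therefore bring negative values elsewhere, which are not a separate result. The CF array of replicate 3 and the control array of replicate 3 were each the highest of their group in 9 of the 13 member probe sets, against 17.0% of all probe sets. This is a description of how these arrays differed, in which the 13 probe sets are not independent of each other. The suffix took a larger share of the sum of squares than the genotype in 12 of the 13 probe sets, against 72.4% of all probe sets. The median share was 54.9% for suffix and 22.6% for genotype in the members, and 47.3% and 14.4% over all probe sets tested. Suffix has 1 more degree of freedom than genotype, which raises the share it takes on average over probe sets. The exception was the brightest Wars probe set, with 49.8% for genotype and 0.1% for suffix. Aars was at the other end, with 0.6% for genotype and 96.2% for suffix. In pairs, 5 probe sets were lower in CF within all 3 suffixes (17.4% of all probe sets were) and 2 higher (17.8% of all). The 5 were Sars, both Asns probe sets, Phgdh and Psat1, and the 2 were the second bright Wars probe set and Eprs. With the suffix as a block, 0 member probe sets passed the threshold, against 0.129% of all, and 1, Psat1, had an unadjusted p under 0.05, against 11.7% of all.

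**Figure D3:**
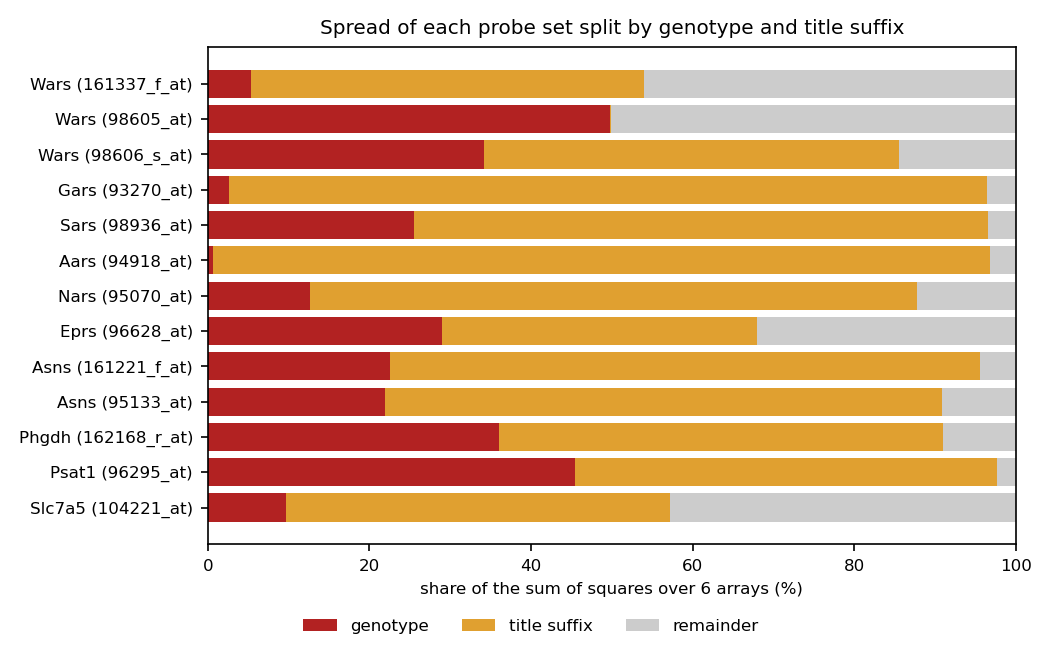
Share of the sum of squares over the 6 arrays (percent) that went to genotype, suffix and the rest in each member probe set. Suffix is the largest share in most bars, genotype and the rest are nearly equal in the brightest Wars probe set, and Psat1 is split at 45.4% for genotype and 52.2% for suffix.

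The rest of the pathway was described from 9 lists of genes, of which 135 of 185 listed genes were on the array and 114 were bright enough to test. None passed the threshold (0.0517% of all named genes did), 10 had an unadjusted p under 0.05 (7.49% of all named genes), and 16 had groups that did not overlap (13.2% of all), 12 higher and 4 lower in CF. The 12 include Slc7a6, which is taken up below. Of the other cytosolic synthetases, 7 of the 12 tested were higher and 5 lower, with a median of 0.19. Vars, the valyl-tRNA synthetase, had 3224, 3705 and 3455 in CF pancreas and 867, 998 and 1613 in control pancreas, 1.63 ± 0.24 on the log2 scale with an adjusted p of 0.068 (limma). Without control replicate 3 its difference was 1.89 and passed the threshold, at an adjusted p of 0.016 (limma). Rars, the arginyl-tRNA synthetase, had 1015, 1096 and 1123 in CF and 702, 782 and 824 in control, 0.49 ± 0.18 with an adjusted p of 0.59 (limma). Iars, the isoleucyl enzyme, lay on the other side, with 1270, 1456 and 1689 in CF and 1942, 1759 and 1807 in control, -0.33 ± 0.17 (adjusted p = 0.72, limma). The groups did not overlap in these 3 genes. The histidyl enzyme Hars had 403, 423 and 486 in CF and 345, 46.9 and 508 in control, where replicate 2 lay under the floor of 47.6, so that no exact difference is given.

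The mitochondrial synthetases gave 4 tested genes of 17 listed, all 4 higher in CF, with a median of 0.52, which was 0.31 without CF replicate 2. Iars2 had 463, 392 and 387 in CF pancreas and 322, 253 and 175 in control pancreas, a difference of 0.77 ± 0.30 (adjusted p = 0.65, limma). Fars2 and Rars2 differed by 0.34 ± 0.23 and 0.33 ± 0.28. Sars2 differed by 0.70 ± 0.66 and was higher in CF in 1 pair alone, with same-suffix differences of -0.33, 2.86 and -0.43. The scaffolds that hold the multisynthetase complex together, Aimp1 and Aimp2, differed by less than 0.05. Among the kinase and transcription factors of the response, 9 were higher and 7 lower in CF of 16 tested, with a median of 0.21. The smallest p-values were those of the eIF2B subunits Eif2b1 (0.35 ± 0.17, no overlap) and Eif2b5 (0.48 ± 0.33), of the transcription factor gene Cebpb (0.81 ± 0.44) and of the stress-induced Nupr1 (0.25 ± 0.18). Same-suffix differences for Cebpb were 0.259, 2.355 and -0.188, so its size came mostly from replicate 2. Atf4 itself had 3113, 1996 and 3160 in CF and 3246, 1938 and 3205 in control, a difference of -0.01 ± 0.26 (adjusted p = 0.995, limma), and both replicate 2 arrays were low. ATF4 is controlled largely at translation, which an array does not read.

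Of 22 other ATF4 target genes tested, 6 were higher and 16 lower in CF, with a median of -0.14. Mthfd2, a mitochondrial folate enzyme, had 3527, 4087 and 5562 in CF pancreas and 6377, 6468 and 7317 in control pancreas. Its difference was -0.64 ± 0.19 with an adjusted p of 0.44 (limma). Psph, which completes serine synthesis after Psat1, had 860, 1108 and 932 in CF and 1295, 1903 and 1311 in control, -0.62 ± 0.21 (adjusted p = 0.55, limma). The groups did not overlap in either gene, and CF was lower within every suffix in both. The next 3 genes by p were all higher in CF with overlapping groups, namely Slc3a2, given above, Slc7a11 and Ddit4. Slc7a11, the cystine transporter, had 184, 213 and 124 in CF and 20.2, 25.7 and 153 in control, with 2 control values under the floor. Ddit4, an inhibitor of mTORC1 signalling, had 2559, 4719 and 678 in CF and 763, 616 and 1431 in control, 1.20 ± 0.63 (adjusted p = 0.73, limma). The list for serine, glycine and asparagine metabolism, which shares Psph and Shmt2 with the ATF4 targets, had 4 of 10 tested genes higher and 6 lower, with a median of -0.07. After Psph its smallest p-values were those of Gnmt (0.38 ± 0.20), which methylates glycine, and of Gcsh (-0.33 ± 0.18, no overlap) and Gldc (0.91 ± 0.58), subunits of the glycine cleavage system.

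Amino acid transporters numbered 14 tested, 6 higher and 8 lower, with a median of -0.08. Slc7a6, a transporter of cationic and neutral amino acids that also pairs with Slc3a2, had 234, 259 and 247 in CF pancreas and 10.8, 75.3 and 53.4 in control pancreas, and did not reach the threshold. It passed the filter on dim probe sets through the CF arrays alone, so the gap between its groups follows from the filter, and 1 control value lay under the floor. A second Slc7a6 probe set was too dim to test. Slc38a5, a glutamine transporter, had 1950, 1972 and 3053 in CF and 3300, 3831 and 2505 in control, -0.48 ± 0.23 (adjusted p = 0.70, limma). Of 31 translation factors, 16 were higher and 15 lower, with a median of 0.02. Eif5a, the hypusine-carrying elongation factor, differed by 1.03 ± 0.34 with no overlap. The initiation factor genes Eif1a (0.55 ± 0.23) and Eif2a (0.69 ± 0.33) were also without overlap, and Eif4ebp2, which encodes an inhibitor of the cap-binding protein, differed by -0.47 ± 0.23. Of 18 genes of the unfolded protein response, 11 were higher and 7 lower, with a median of 0.10. The translocon subunit Sec61a1 had 4978, 4892 and 4556 in CF and 2991, 3387 and 3716 in control, 0.52 ± 0.15 (adjusted p = 0.40, limma). The chaperone genes Dnajb9 (0.39 ± 0.17) and Canx (0.30 ± 0.16), and Manf (0.27 ± 0.15), were likewise higher on every CF array than on any control array.

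**Figure D4:**
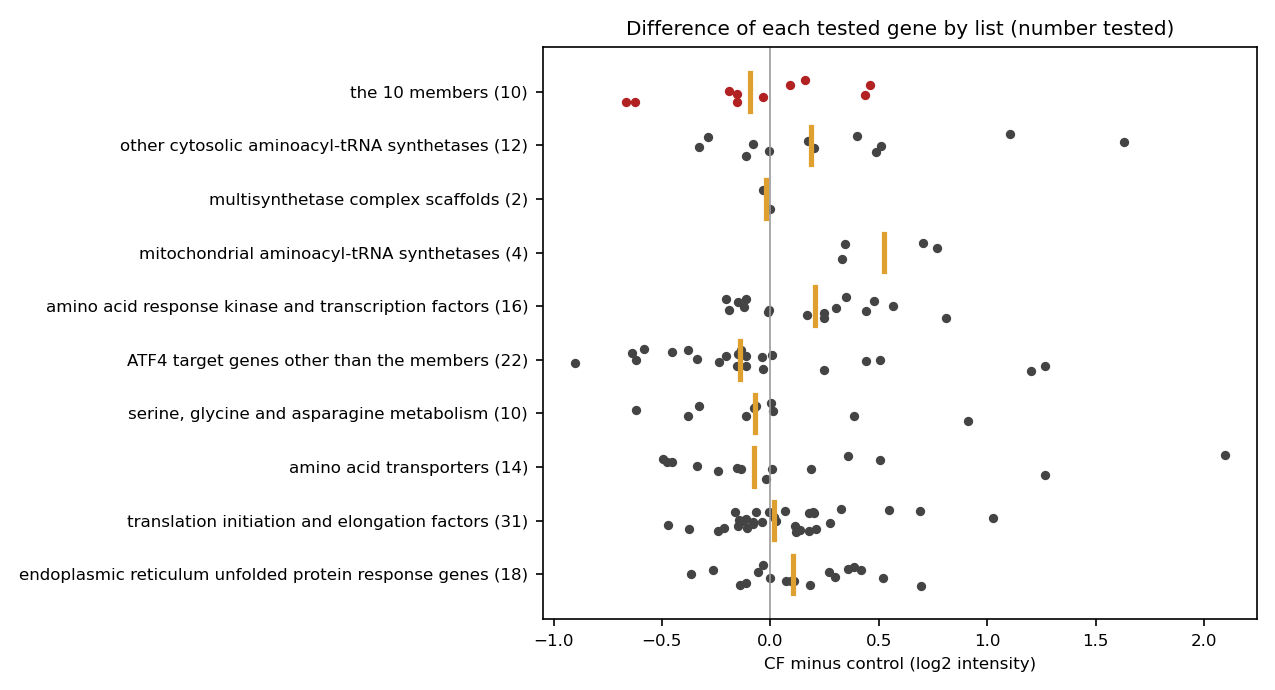
Log2 difference between CF and control arrays (axis in log2 units) of each tested gene in the 9 related lists and the members, with the number tested in brackets and an orange bar at the list's median. Medians run from -0.14 for the other ATF4 target genes to 0.52 for the mitochondrial synthetases, and no gene in these lists passed the threshold.

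The average shape of the members over the 6 arrays was the mean of their standardised values, which was -0.43, -0.45 and 0.61 in CF pancreas and -0.42, -0.13 and 0.81 in control pancreas. In this average, replicate 3 was thus the high array in both groups. Of the member genes, 7 had replicate 3 highest in both groups, and Wars, Phgdh and Slc7a5 did not. Of 5794 other genes, 75 had a Pearson correlation over 0.9 with this profile over 6 arrays that share suffix and group. The nearest were Ankrd17 (0.991), Asb6 (0.986), Adi1 (0.981), Suclg1 (0.979) and Slc41a1 (0.976). Adi1 had 349, 372 and 676 in CF and 425, 437 and 813 in control, and in Suclg1 the values were 1528, 1643 and 2379 in CF and 1626, 1753 and 2327 in control. Adi1 is an enzyme of methionine salvage, and Suclg1 a subunit of the mitochondrial succinyl-CoA ligase.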

How the data were processed

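Gene expression was measured on 6 Affymetrix arrays, 3 of CF and 3 of control pancreas. The deposited values are intensities per probe set on a linear scale; their trimmed means are nearly equal across arrays, and which software made them was not given in the sources used here. Probe sets were named from the platform annotation (10855 with 1 symbol, 396 with several, 1237 with none); 10839 were matched to RefSeq. Values were floored at the pooled 20th percentile (47.6), and the 7739 probe sets above the pooled 40th percentile (140.2) on at least 3 arrays were tested on the log2 scale in limma 3.58.1 (R 4.3.3), with eBayes, a mean-variance trend and Benjamini-Hochberg adjustment over all of them at a threshold of 0.05. Each gene is represented by its brightest tested probe set where genes are counted. Same-suffix arrays correlated above 0.1 in all 3 pairs, so the suffix was taken to pair arrays, as the data show and no label states; the fit without the block is the one reported first. Each array is 1 mouse, and the number of arrays limits precision. Alternatives were other floors and filters, no trend, a robust fit, quantile normalization, array weights, an added offset, the block and each array left out. The members and lists were chosen with earlier results of these data known. Genes named are all members, the 4 of smallest p in each related list, and the 5 nearest in shape; Atf4 is named for its role, and Ddit4 and Shmt2 were named after their values were seen. The fit without the block was checked on simulated data whose arrays varied independently, so the check did not cover the pairing by suffix.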

Additional observations from a re-analysis of the deposited data

How the results depend on the processing

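No member probe set passed the threshold under any setting run; the lowest adjusted p of a member was 0.205, for Psat1 with the replicate block (limma), and its log2 difference ranged from -0.94 to -0.44. Over all probe sets, 5 passed at first; 12 did with array weights, 10 with the floor at the 40th percentile, 3 without the trend, 10 with the replicate block and 17 at an adjusted p under 0.1. Without a filter 0 of 12422 passed in limma, with 773 at an unadjusted p under 0.05. Leaving out 1 array gave from 1 to 11 calls, with 1 without CF replicate 1 or 2, 8 without CF replicate 3 and 11 without control replicate 2. Of the related genes, 0 passed at first, 1 (Vars, adjusted p = 0.0468) with the floor at the 40th percentile, and from 0 to 1 with 1 array left out (Vars, 1.89, adjusted p = 0.0162, without control replicate 3). The cause of these moves was not tested. Leaving out 1 array turned the sign of 4 small differences, whose log2 values ranged from -0.022 to 0.298 for the dim Wars probe set, from -0.093 to 0.29 for Gars, from -0.153 to 0.12 for Aars and from -0.014 to 0.287 for Slc7a5. Every other member probe set kept its sign in these fits, but sizes moved, for example from 0.155 (without control replicate 2) to 0.677 (without control replicate 3) for Eprs, from -0.939 (without control replicate 1) to -0.28 (without control replicate 2) for Phgdh and from -0.321 (without CF replicate 3) to -0.009 (without CF replicate 2) for Nars. List medians also turned sign with 1 array left out: from -0.213 to 0.033 for the members, from -0.259 to 0.156 for the serine list, from -0.149 to 0.011 for transporters, from -0.067 to 0.058 for translation factors, from -0.079 to 0.075 for scaffolds and from -0.019 to 0.21 for the unfolded protein response. The serine list was also at 0.057 with array weights. For the mitochondrial synthetases the median was 0.337 with the dimmest probe set per gene and 0.343 without a filter. The median of the other cytosolic synthetases was 0.08 with the 60th percentile filter and 0.30 without control replicate 3. The replicate block changed no other call described here.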

Other observations

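Of the related genes on the array, 21 were too dim to test and enter no count above. They include Eif2ak4, which encodes the kinase GCN2, at 81.6, 90.3 and 54.5 in CF pancreas and 66.5, 55.6 and 75.5 in control pancreas. Trib3, a pseudokinase induced by ATF4, was at 56.9, 61.2 and 37.6 in CF and 51.0, 42.9 and 42.0 in control. Cars, the cysteinyl-tRNA synthetase, was at 54.6, 35.8 and 48.3 in CF and 64.2, 79.7 and 104.3 in control. These 3 genes were picked for their roles after their values were seen. None passed the filter, and some values of Trib3 and Cars lay under the floor of 47.6, so no difference is given. In Cars every control value lay above every CF value, which was not tested.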
